A study of Mus musculus with 12 samples.

Results

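Desmosomes are the spot-like junctions that tie the intermediate filaments of neighbouring cells together, and 10 genes for them, for the neighbouring cadherin junction and for cell adhesion were followed in HL-1 cells. The genes were taken by symbol from a table of 23184 gene symbols, in which all 10 had a row: the plakophilins Pkp1, Pkp2, Pkp3 and Pkp4, the plaque proteins Jup and Dsp, the desmosomal cadherins Dsg2 and Dsc2, the classical cadherin Cdh2, and the adhesion gene L1cam. HL-1 is a line from tumours of the mouse atrium, and its RNA was sequenced in relation to Wdr62, a gene for a centrosome and spindle pole protein. The 12 libraries form 3 groups of 4, all grown with fetal bovine serum. Control cells (CON, genotype WT) carried viruses made from the empty vectors pCDH and lentiCRISPRv2. The KD cells (genotype WDR62-) received a virus whose CRISPR guide targets Wdr62. Re-expression cells (RE, genotype WDR62+) were KD cells infected in addition with virus for flag-tagged wild-type WDR62 in pCDH. For KD the labels name no pCDH vector, and they do not say whether KD was 1 clone or a mixed population. All 3 groups are cultures of 1 line, and the labels do not state that the 4 libraries of a group are independent cultures; p-values reflect only how far these libraries spread, which may be technical.

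In a desmosome, desmogleins and desmocollins bind across the gap between cells. Plakoglobin (encoded by Jup) and a plakophilin hold their tails, and desmoplakin (Dsp) joins the plaque to intermediate filaments, which in heart muscle are made of desmin. At the intercalated disc of heart muscle, desmosomal proteins mix with the adherens junction, in which N-cadherin (Cdh2) is linked to actin by catenins. In humans, mutations of PKP2, DSP, DSG2, DSC2 and JUP cause arrhythmogenic cardiomyopathy. L1cam encodes an immunoglobulin-family adhesion protein best known from growing axons.

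Levels are TPM (transcripts scaled to a fixed library total), and take transcript length into account. Comparisons between genes are of listed values only, and an order by TPM may not be the order in the cells. The ribosomal protein genes Rpl3 and Rpl4, for example, were listed at 10.0 to 19.2 TPM and 1918 to 2758 TPM. Each library sums to 1000000 TPM, the sequencing depth is unknown, and a value of 0 is reported as listed at 0, since Rps18, a ribosomal protein gene that every cell uses, was also listed at 0 in 8 of the 12 libraries. Genes with a mean of at least 1 TPM over the 12 libraries were tested (11774 genes, among them 6 of the 10 adhesion genes) with limma on log2(TPM + 1) values, and a gene counts as changed at an adjusted p below 0.05. The added 1 makes differences of low genes look smaller than they are. Wdr62 stood at 3.38 to 7.45 TPM in CON, 0.881 to 1.399 TPM in KD and 0.772 to 1.99 TPM in RE, and the KD level differed from the CON level by -1.67 ± 0.25 (log2 scale, SE, adjusted p = 0.000921; exact two-sided permutation p = 0.0286, the smallest that 4 against 4 allows). In the limma fit Wdr62 in RE differed from KD by 0.05 ± 0.25 (adjusted p = 0.895) and from CON by -1.62 ± 0.25 (adjusted p = 0.00147). The listed values thus show no rise of Wdr62 in RE, and the expression construct may not be counted under this symbol. In CON 4, RE 1 and RE 3 long transcripts were low: their log2 values, for 2266 tested genes whose transcripts reach 5041 bases or more, deviated from each gene's mean by a median of -0.83, -0.73 and -0.996, against -0.21 to 0.72 in the other 9 libraries. The longest coding transcripts of the 6 tested adhesion genes run from 2918 bases for Pkp2 to 5126 bases for L1cam in GENCODE M21 (build GRCm38). Of 17 heart muscle markers, the defining genes Actc1, Myl7 and Sln were listed at 0 in all 12 libraries and 11 had a mean under 1 TPM. Tnnt2, for cardiac troponin T, stood at 12.9 to 26.7 TPM over all libraries. The summed TPM of the 17 markers was 42.3 to 69.3 in CON, 52.2 to 67.9 in KD and 58.0 to 92.6 in RE. Of the 6 of them that were tested, 1 rose in KD and in RE against CON, where 6.60% and 2.70% of all tested genes rose. This was Nkx2-5, for a heart muscle transcription factor, at 3.60 to 8.50 TPM in CON, 9.79 to 14.8 TPM in KD and 12.9 to 26.7 TPM in RE. In KD against CON 0 of the 6 rose with median-of-ratios scaling or quantile normalization, and 2 rose with a correction for transcript length. In RE against CON these settings gave 1, 2 and 1.

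The core of the desmosome was nearly empty in the table. Dsg2, the desmoglein of heart muscle, was listed at 0 in all 12 libraries. Dsc2, the desmocollin of heart muscle, was listed at 0 in 11 libraries and at 0.0269 TPM in RE 2. Dsp was listed at 0 in 10 libraries, the exceptions being KD 2 with 0.0246 TPM and KD 4 with 0.0106 TPM. The 7 other desmosomal cadherin genes in the table (Dsg1a, Dsg1b, Dsg1c, Dsg3, Dsg4, Dsc1 and Dsc3) were each listed at 0 in all 12 libraries. The desmosomal cadherin genes Dsg2 and Dsc2 lie on mouse chromosome 18, as does Cdh2, which was at 9.79 to 36.7 TPM. Perp, for a membrane protein of desmosomes, was also listed at 0 throughout. No comparison between groups is made for Dsp, Dsg2 and Dsc2, since nearly all of their values are 0.

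The plaque and adherens partners were present. In CON the order of mean levels was Pkp4 (36.7 ± 13.2 TPM, SD, n = 4), Cdh2 (21.2 ± 8.79), Jup (13.1 ± 3.0), Pkp2 (10.2 ± 3.78), Pkp1 (8.77 ± 2.0), L1cam (2.50 ± 0.66) and Pkp3 (0.310 ± 0.049). From Pkp4 down to Pkp1 the ranges of neighbours in this order overlapped. Within single CON libraries the order Pkp4, Cdh2, Jup, Pkp2 held in 4 of 4, and Pkp2 exceeded Pkp1 in 3 of 4. L1cam lay below Pkp1, and Pkp3 below L1cam, with no overlap. In KD the order was Cdh2 (31.4 ± 6.13 TPM), Pkp4 (24.0 ± 5.67), L1cam (23.7 ± 6.93), Pkp2 (19.97 ± 7.20), Jup (11.97 ± 2.07), Pkp1 (1.32 ± 0.60) and Pkp3 (0.273 ± 0.075). L1cam therefore stood next to Pkp4 in KD, where Pkp4 exceeded it in 2 of 4 libraries. In RE the order was Cdh2 (20.2 ± 6.92 TPM), Pkp4 (19.0 ± 4.75), Pkp2 (13.3 ± 2.94), L1cam (8.10 ± 3.78), Jup (6.68 ± 1.10), Pkp1 (1.05 ± 0.37) and Pkp3 (0.445 ± 0.154), and the ranges of neighbours overlapped except between Jup and Pkp1.

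**Figure D1:**
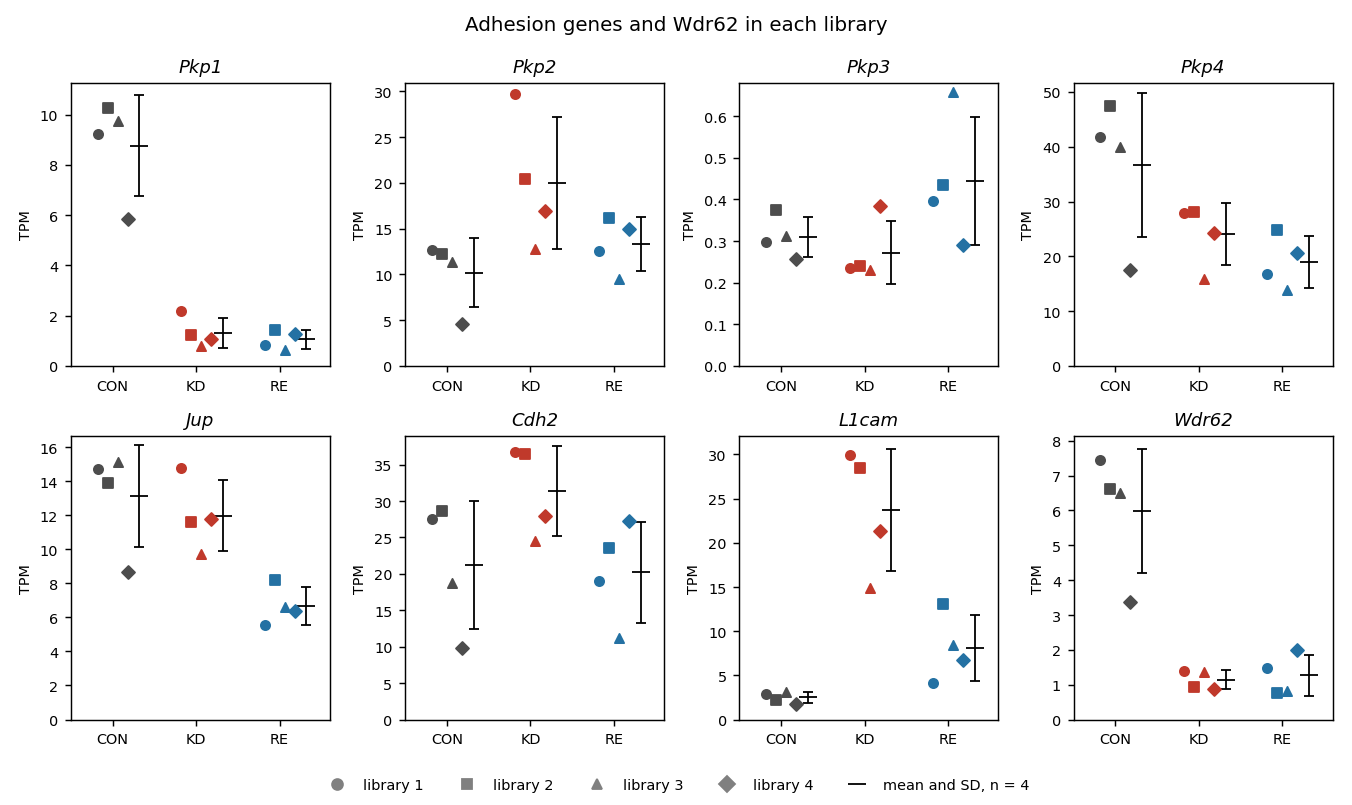
TPM (linear axis from 0) of 7 adhesion genes and Wdr62 in each of the 12 libraries, grouped as CON, KD and RE. The marker shape gives the library number, which is not used here to pair libraries, and the bar the mean and SD of 4 libraries. Pkp1 lies at 5.84 to 10.3 TPM in CON and at or below 2.17 TPM in KD and RE, and L1cam lies at 1.71 to 3.15 TPM in CON, 14.9 to 30.0 TPM in KD and 4.14 to 13.1 TPM in RE.

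KD was compared with CON to ask which adhesion genes differed where Wdr62 was targeted. Of the 6 tested adhesion genes, L1cam rose, Pkp1 fell and the other 4 did not pass the test. Over all genes tested, 10.2% changed in this comparison (6.60% higher and 3.61% lower). Without CON 4 the share was 20.5% (9.48% higher and 11.01% lower), and without CON 4, RE 1 and RE 3 it was 39.4% (14.2% higher and 25.1% lower). As reported, the median log2 fold change of the 6 was 0.26, against -0.01 for all tested genes. Without CON 4 the median of all tested genes was -0.16. L1cam was then at 2.67, Pkp2 at 0.62, Cdh2 at 0.32, Jup at -0.28, Pkp4 at -0.85 and Pkp1 at -2.25. The groups did not overlap for Pkp1, Pkp2 and L1cam, 3 of the 6, against 18.9% of all tested genes. Since these genes were picked with results in view, this count is a description.

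Pkp1, a plakophilin found mainly in epidermis and other stratified epithelia (chromosome 1, 135871395 to 135919207, minus strand, GRCm38), was at 9.21, 10.3, 9.74 and 5.84 TPM in CON 1 to CON 4. It was at 2.17, 1.23, 0.785 and 1.08 TPM in KD 1 to KD 4, and at 0.842, 1.43, 0.651 and 1.29 TPM in RE 1 to RE 4. Every KD and RE library lay below every CON library, while KD and RE overlapped. Against CON, Pkp1 fell in KD, with a log2 difference of -2.08 (SE 0.23, 95% interval -2.59 to -1.58, adjusted p = 0.000133). RE differed from KD by -0.16, with an interval of -0.67 to 0.35 (adjusted p = 0.635) and a sign that turned with the scaling (0.010 with median-of-ratios scaling and 0.39 after the length correction), and RE was lower than CON by -2.24 ± 0.23 (adjusted p = 8.88e-05). Both differences from CON passed in 21 of 21 alternatives, and log2 fold changes ran from -2.70 to -1.97 for KD and from -2.97 to -1.64 for RE.

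Some markers of epithelial cells moved with Pkp1. The summed TPM of 16 epithelial and keratinocyte markers was 24.2 to 42.7 in CON, 4.09 to 6.32 in KD and 3.87 to 5.86 in RE. Most of that sum in CON was Krt19, for an epithelial keratin, at 19.5 to 37.8 TPM. Of the 2 tested markers, Krt19 fell in KD and the keratin gene Krt14 did not pass the test (1.15 to 2.82 TPM in CON, 0.262 to 1.20 TPM in KD). The other 14 had a mean under 1 TPM, and the defining markers Epcam, Cldn7 and Esrp1 were listed at 0 in all 12 libraries. Trp63, for the keratinocyte transcription factor p63, was named after its values were seen: it was at 1.46 to 1.85 TPM in CON, 0.118 to 0.382 TPM in KD and 0.0488 to 0.151 TPM in RE, below the level for testing. Krt7, for another epithelial keratin, lay the other way, at 0 to 0.214 TPM in CON, 1.06 to 2.03 TPM in KD and 0.155 to 2.16 TPM in RE. Sfn and Grhl2, an epithelial protein gene and transcription factor gene, overlapped between CON and KD. Of 6 tested fibroblast markers, 0 rose and 2 fell in KD against CON, where 6.60% and 3.61% of all tested genes did. These were Dcn, for the matrix protein decorin (23.6 to 81.4 TPM in CON, 4.10 to 6.18 TPM in KD), and Col1a1, for a collagen chain (78.3 to 108 TPM in CON, 41.8 to 64.4 TPM in KD). The marker Pdgfra leaned the other way, at 14.7 to 50.7 TPM in CON and 44.2 to 73.2 TPM in KD. The median log2 fold change of the 6 was 0.08. With the length correction 1 rose and 2 fell (12.1% and 10.7% of all tested genes). The part of such cells or genes in the Pkp1 difference was not tested. In bulk RNA, fewer cells of a type and less RNA per cell cannot be told apart.

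Pkp2, the main plakophilin of heart muscle, was at 12.7, 12.2, 11.4 and 4.59 TPM in CON. It was at 29.7, 20.5, 12.8 and 16.9 TPM in KD, and at 12.5, 16.2, 9.53 and 14.9 TPM in RE. Each KD library lay above each CON library, by a small margin between KD 3 and CON 1, while RE overlapped both groups. The log2 difference of KD from CON was 0.93 ± 0.32 with an interval of 0.22 to 1.63, and it missed the threshold (adjusted p = 0.0978). It was positive in 22 of 22 alternatives and passed in 4 of them, with median-of-ratios scaling (0.91, adjusted p = 0.0130), quantile normalization (0.95, adjusted p = 0.00355) and the length correction with (0.90, adjusted p = 0.00846) or without CON 4 (0.73, adjusted p = 0.0103). RE differed from KD by -0.52 (-1.22 to 0.19, adjusted p = 0.269) and from CON by 0.41 (-0.30 to 1.12, adjusted p = 0.366), the latter passing with quantile normalization (0.83, adjusted p = 0.0115) and, at the threshold, with the length correction without CON 4 (0.495, adjusted p = 0.0499541).

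Pkp4, a plakophilin-related armadillo protein of junctions that is also known from the midbody of dividing cells, was at 41.8, 47.5, 39.9 and 17.4 TPM in CON. It was at 27.8, 28.1, 15.9 and 24.2 TPM in KD, and at 16.7, 24.8, 13.8 and 20.5 TPM in RE. CON 4 was the only CON library within the KD range, and the other 3 CON libraries lay above all KD and RE libraries. The differences of KD (-0.53 ± 0.31, -1.20 to 0.14, adjusted p = 0.343) and RE (-0.86 ± 0.31, -1.53 to -0.18, adjusted p = 0.122) from CON missed the threshold. Without CON 4 both passed, at -0.85 (adjusted p = 0.0246) and -1.17 (adjusted p = 0.00301), in fits where 20.5% and 52.8% of all tested genes changed, and without CON 4, RE 1 and RE 3 they were -0.85 (adjusted p = 0.00721) and -0.90 (adjusted p = 0.0195). The KD difference also passed with quantile normalization (-0.54, adjusted p = 0.0424) and the length correction (-0.58, adjusted p = 0.00438), whereas the RE difference was -0.36 with the length correction (adjusted p = 0.0599). With the length correction and without CON 4 both passed, KD at -0.63 (adjusted p = 0.00234) and RE at -0.42 (adjusted p = 0.0180). In these fits 34.6% and 39.2% of all tested genes changed. RE differed from KD by -0.32 (SE 0.31, adjusted p = 0.451).

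Pkp3, a plakophilin of most epithelia, was below the level for testing, at 0.256 to 0.374 TPM in CON, 0.230 to 0.385 TPM in KD and 0.291 to 0.658 TPM in RE. The 3 ranges overlapped. Exact two-sided permutation tests gave p = 0.4 for KD against CON, p = 0.0571 for RE against KD and p = 0.143 for RE against CON; these 3 values are unadjusted.

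The make-up of the plakophilin transcripts can be read within each library, where a factor common to the 4 genes cancels. A bias by transcript length does not cancel. The longest coding transcripts are 2918 bases for Pkp2 and 2919 for Pkp3, against 4669 for Pkp1 and 4614 for Pkp4. The part of the length bias in the shares and ratios was not tested. Of the summed plakophilin TPM, Pkp1 held 14.4% to 20.8% in CON, 2.46% to 3.62% in KD and 2.64% to 3.48% in RE. Pkp2 held 16.3% to 19.8% in CON, 39.7% to 49.6% in KD and 37.8% to 41.1% in RE. Pkp4 held most in CON, with 62.0% to 67.5%, against 46.4% to 56.9% in KD and 54.8% to 57.8% in RE. For each of Pkp1, Pkp2 and Pkp4 the shares in CON lay apart from those in KD and RE, and the shares in KD and RE overlapped. The ratio of Pkp2 to Pkp1 was 1.37, 1.19, 1.17 and 0.786 in CON 1 to CON 4, 13.7 to 16.6 in KD and 11.4 to 14.9 in RE. Shares and ratios are given without a test. A higher share does not show a higher level: the summed plakophilin TPM itself was 28.1 to 70.3 in CON, 29.8 to 59.9 in KD and 24.7 to 42.9 in RE.

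**Figure D2:**
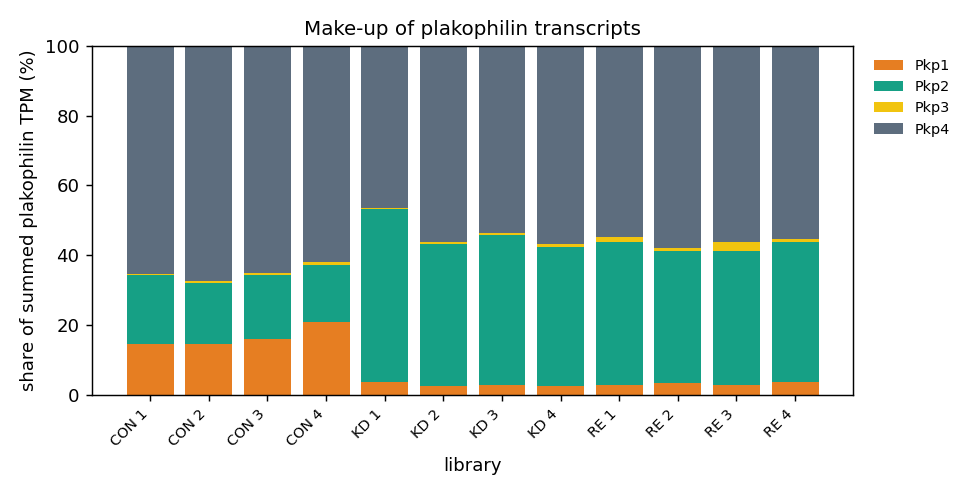
Stacked bars of the share (%) of the summed plakophilin TPM held by Pkp1, Pkp2, Pkp3 and Pkp4 in each of the 12 libraries. The Pkp1 part takes 14.4% to 20.8% of each CON bar and at most 3.62% of each KD or RE bar, and the Pkp2 part takes at most 19.8% in CON and at least 37.8% in KD and RE.

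Jup, for plakoglobin, which serves in desmosomes and adherens junctions alike, was at 14.7, 13.9, 15.1 and 8.67 TPM in CON. It was at 14.7, 11.6, 9.75 and 11.8 TPM in KD, and at 5.54, 8.17, 6.60 and 6.38 TPM in RE. All 4 RE libraries lay below all CON and all KD libraries, whereas CON and KD overlapped. KD differed from CON by -0.11 (-0.57 to 0.36, adjusted p = 0.855), and Jup passed this test in 0 of 22 alternatives. In RE against CON Jup fell by 0.86 on the log2 scale (SE 0.21, interval -1.32 to -0.40, adjusted p = 0.0312), and the difference of RE from KD was -0.75 ± 0.21 (-1.22 to -0.29, adjusted p = 0.0933). The call against CON was kept in 12 of 22 alternatives. It was lost when RE 1, RE 3, RE 4, KD 2, KD 4 or any of CON 1 to CON 3 was left out (largest adjusted p 0.117, without CON 3), with the compared groups alone (adjusted p = 0.108) and with quantile normalization (-0.41, adjusted p = 0.115). Without CON 4 the difference of RE from KD passed (adjusted p = 0.0296), where 23.7% of all tested genes changed.

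Cdh2, for the cadherin of the intercalated disc, was at 27.5, 28.6, 18.7 and 9.79 TPM in CON. It was at 36.7, 36.4, 24.5 and 27.9 TPM in KD, and at 19.0, 23.5, 11.2 and 27.2 TPM in RE. The 3 groups overlapped. KD differed from CON by 0.63 ± 0.34 (-0.11 to 1.37, adjusted p = 0.298), RE from KD by -0.66 ± 0.34 (-1.40 to 0.08, adjusted p = 0.206) and RE from CON by -0.02 ± 0.34 (-0.77 to 0.72, adjusted p = 0.960). The KD difference was positive in 22 of 22 alternatives and passed in 3, namely with quantile normalization (0.66, adjusted p = 0.0207) and with the length correction with (0.58, adjusted p = 0.00792) or without CON 4 (0.55, adjusted p = 0.0111). The RE difference from CON turned positive under several alternatives and passed with the length correction (0.49, adjusted p = 0.0268).

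L1cam (chromosome X, 73853778 to 73896105, minus strand, GRCm38) had the largest difference of the 6 tested genes in KD against CON. It was at 2.93, 2.23, 3.15 and 1.71 TPM in CON, at 30.0, 28.5, 14.9 and 21.4 TPM in KD, and at 4.14, 13.1, 8.42 and 6.72 TPM in RE. The 3 groups did not overlap with each other, and RE lay between CON and KD. L1cam rose in KD against CON by 2.79 ± 0.31 (interval 2.11 to 3.47, adjusted p = 0.000135), and this call was kept in 22 of 22 alternatives, with values from 2.66 to 3.18. The ratio of L1cam to Cdh2 within a library was 0.0779 to 0.174 in CON, 0.610 to 0.816 in KD and 0.218 to 0.755 in RE. The summed TPM of 12 neural and Schwann cell markers was 76.7 to 112 in CON, 31.4 to 54.8 in KD and 35.2 to 52.3 in RE, and so did not rise with L1cam. Most of it was Stmn2 and Ncam1, with means of 33.6 and 18.1 TPM over the 12 libraries. Ncam1 also stands in the list of L1 relatives below. Of the 12 markers, 9 had a mean under 1 TPM. Of the 3 tested, 2 fell in KD against CON, where 3.61% of all tested genes fell. Sox10 and Rbfox3, defining markers of Schwann cells and neurons, were listed at 0 in all 12 libraries. Avpr2, which overlaps L1cam on the opposite strand, was listed at 0 in all 12 libraries.

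The 250 bases before a start site are shown for L1cam, the gene with the largest difference, and for Dsp, the plaque gene listed at or near 0, from RefSeq on GRCm38.p6. Capitals mark the GC box GGGCGG on either strand.
L1cam, chrX:73880835-73881084, minus strand: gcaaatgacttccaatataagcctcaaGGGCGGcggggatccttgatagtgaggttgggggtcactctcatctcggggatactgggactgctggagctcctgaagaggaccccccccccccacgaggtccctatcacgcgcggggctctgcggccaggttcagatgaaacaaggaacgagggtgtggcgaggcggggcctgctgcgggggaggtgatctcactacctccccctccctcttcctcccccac
Dsp, chr13:38151044-38151293, plus strand: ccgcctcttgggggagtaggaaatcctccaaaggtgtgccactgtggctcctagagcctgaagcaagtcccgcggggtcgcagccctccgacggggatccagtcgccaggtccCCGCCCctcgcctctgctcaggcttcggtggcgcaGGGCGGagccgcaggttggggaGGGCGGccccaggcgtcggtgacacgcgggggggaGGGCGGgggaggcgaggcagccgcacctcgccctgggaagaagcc
The L1cam window belongs to the more upstream of 2 start sites in the table, and the windows of both overlap. Both lie inside the GENCODE span of the gene, which reaches further upstream, to 73896105, and the bases before that end are not shown. It holds 1 GC box, and the Dsp window holds 4. The GC box occurs in 32.7% of 32851 such windows. The TATA box TATAAA, with a match in 12.4% of windows, was in neither, and the E-box CANNTG (66.2% of windows) had 2 matches for L1cam and none for Dsp. The CCAAT box CCAAT (33.8%) had 1 match for L1cam and none for Dsp, and the AP-1 site TGANTCA (6.75%) had none in either. Both strands were searched. L1cam has 12 CpG and Dsp 22, against a median of 6. These matches describe the letters and are not binding sites.

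RE was compared with KD to ask which adhesion genes differed where virus for WDR62 was added, although Wdr62 as listed did not rise. Of the 6 tested genes, L1cam fell and the other 5 did not pass the test, where 1.04% of all tested genes changed (0.187% higher and 0.858% lower; 22 and 101 genes, and 32 and 46 with median-of-ratios scaling). The share for all tested genes rested on single libraries: it was 23.7% without CON 4 (453 higher and 2338 lower), 4.39% without RE 2, 3.55% without KD 3, and 0.110% to 0.408% without any other library. The deposited scaling put the median of all tested genes at -0.29 in this comparison, and the median of the 6 was -0.59. With median-of-ratios scaling the median of all genes was 0.0044. L1cam fell by 1.49 on the log2 scale (SE 0.31, interval -2.17 to -0.80, adjusted p = 0.0479), which is 1 of the 2 genes of the 6 whose groups did not overlap, the other being Jup, against 14.3% of all tested genes. The call lay close to the threshold. It was kept in 4 of 24 alternatives, and it was lost on leaving out RE 1, RE 3, RE 4, KD 1, KD 2, KD 4 or any of CON 1 to CON 3 (largest adjusted p 0.199, without KD 2). The value stayed negative throughout, from -1.73 without RE 2 to -0.88 with the length correction, and was -1.18 with median-of-ratios scaling (adjusted p = 0.0633) and -1.19 without CON 4, RE 1 and RE 3 (adjusted p = 0.120).

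RE was also compared with CON, which shares its libraries with the comparisons above. Of the 6 tested genes L1cam rose and Pkp1 and Jup fell, where 6.33% of all tested genes changed (2.70% higher and 3.63% lower; 318 and 427 genes, and 592 and 504 with median-of-ratios scaling), and the same 3 genes were those whose groups did not overlap, against 9.22% of all tested genes. Without CON 4 the share of changed genes was 52.8% (1273 higher and 4946 lower), and without CON 4, RE 1 and RE 3 it was 32.1%. The median of all tested genes was -0.27 and that of the 6 was -0.44. L1cam was higher in RE than in CON by 1.30 ± 0.31 (0.62 to 1.99, adjusted p = 0.0275). This call was kept in 16 of 22 alternatives and lost when RE 2, RE 3 or any of CON 1 to CON 3 was left out (largest adjusted p 0.0848, without CON 2) and with the compared groups alone (adjusted p = 0.0693). Some fibroblast markers were lower in RE: 4 of the 6 tested fell against CON (3.63% of all tested genes) and 2 fell against KD (0.858% of all tested genes). These counts depended on the scaling. They were 4 and 2 with quantile normalization, and 2 and 0 with median-of-ratios scaling. With the length correction 2 fell and 1 rose against CON, and 0 fell against KD. The summed TPM of all 9 such markers was 1560 to 2525 in RE, against 2752 to 4265 in CON and 2953 to 4252 in KD, and most of it was the collagen gene Col3a1 (1190 to 3455 TPM over all libraries), with Lum and Tcf21 listed at 0 in all 12 libraries. Their part in the differences of L1cam and Jup was not tested.

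**Figure D3:**
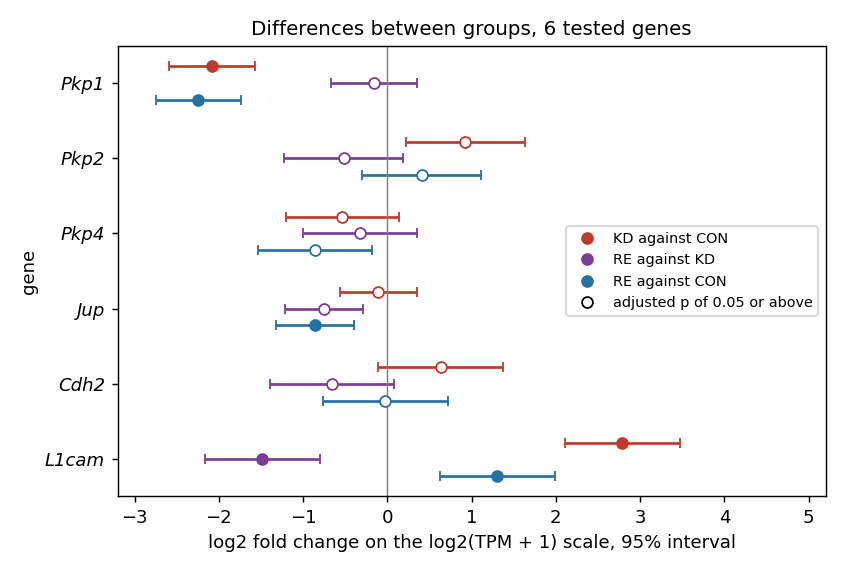
Log2 fold changes on the log2(TPM + 1) scale with 95% intervals for the 6 tested adhesion genes in the 3 comparisons; filled points have an adjusted p below 0.05. L1cam is filled in all 3 comparisons (2.79, -1.49 and 1.30), Pkp1 in both comparisons with CON (-2.08 and -2.24), and Jup in RE against CON (-0.86).

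The genes around the desmosome were read from lists of related genes, whose members were named by the size of their change. The median log2 fold change of 9 tested genes for plaque-linked proteins and intermediate filaments was -0.32 in KD against CON. Of these, 0 rose and 1 fell (6.60% and 3.61% of all tested genes). This was Krt19, which fell from 26.5 ± 7.89 TPM in CON to 1.29 ± 0.67 TPM in KD (-3.59 ± 0.28, adjusted p = 5.95e-06), and it was at 0.794 ± 0.524 TPM in RE (-3.94 ± 0.28 against CON, adjusted p = 2.86e-06). Des for desmin, the partner filament of the cardiac desmosome, stood at 321 to 632 TPM in CON, 284 to 378 TPM in KD and 315 to 542 TPM in RE, and Vim for vimentin at 4192 to 9550 TPM over all libraries. Krt8 and Krt18, the keratins of simple epithelia, were at or below 0.101 TPM in every library. Without CON 4, RE 1 and RE 3, 0 of the 9 rose and 4 fell in KD, where 14.2% of all tested genes rose and 25.1% fell.

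The median of 15 tested adherens junction and catenin genes was 0.23 in KD against CON. Of these, 4 rose and 0 fell (6.60% and 3.61% of all tested genes). The 3 largest were Sorbs2, for an actin-linked adaptor of heart muscle (from 1.21 ± 0.29 to 6.62 ± 1.60 TPM, 1.77 ± 0.24, adjusted p = 0.000568), Pdlim1, for a PDZ and LIM domain protein of the actin cytoskeleton (from 6.91 ± 1.12 to 16.5 ± 1.12 TPM, 1.16 ± 0.17, adjusted p = 0.000791), and Pvrl2, for the adhesion protein nectin-2 (from 49.0 ± 12.6 to 102 ± 12.8 TPM, 1.07 ± 0.24, adjusted p = 0.0139). The call of Pvrl2 was lost with median-of-ratios scaling (adjusted p = 0.0674). In RE against CON 2 rose and 0 fell (2.70% and 3.63% of all tested genes). These were Pdlim1, at 22.5 ± 2.90 TPM in RE (1.58 ± 0.17, adjusted p = 9.45e-05), and Sorbs2, at 3.77 ± 1.29 TPM (1.07 ± 0.24, adjusted p = 0.0184), whose call was lost without any 1 of CON 1, CON 3, RE 2 and RE 3 (largest adjusted p 0.0628). The core catenin genes Ctnna1 and Ctnnb1 stood at 92.1 to 309 TPM and 74.0 to 404 TPM over all libraries. Without CON 4, RE 1 and RE 3, 5 of the 15 rose and 4 fell in KD, against the same 14.2% and 25.1% of all tested genes.

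The median of 8 tested gap junction and intercalated disc genes was 0.13 in KD against CON. Of these, 1 rose and 0 fell (6.60% and 3.61% of all tested genes). Nrap, for a protein of the myofibril ends at the disc, rose from 0.669 ± 0.056 TPM in CON to 7.70 ± 1.41 TPM in KD (2.37 ± 0.19, adjusted p = 8.69e-06), and it was at 4.71 ± 1.19 TPM in RE (1.75 ± 0.19 against CON, adjusted p = 0.000130). Gja1, for the gap junction protein connexin 43, was at 531 to 727 TPM in CON, 724 to 949 TPM in KD and 410 to 747 TPM in RE. In RE against CON, Ank2 for ankyrin-B fell from 3.56 ± 1.47 to 0.758 ± 0.532 TPM (-1.36 ± 0.29, adjusted p = 0.0128), a call lost without CON 3 and with the length correction (-0.32, adjusted p = 0.525). Without CON 4, RE 1 and RE 3, 1 of the 8 rose and 2 fell in KD (14.2% and 25.1% of all tested genes). Of 3 tested other cadherin genes, 0 rose and 0 fell in KD against CON and in RE against CON, and Cdh13 for T-cadherin was the most abundant of them at 53.5 to 198 TPM in CON, 120 to 204 TPM in KD and 15.8 to 87.1 TPM in RE. Without CON 4, RE 1 and RE 3, 1 of the 3 fell in KD and 2 fell in RE against CON, where 25.1% and 23.99% of all tested genes fell.

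The median of 11 tested genes for L1 relatives, ligands and membrane linkers was -0.25 in KD against CON. Of these, 0 rose and 2 fell (6.60% and 3.61% of all tested genes). Ncam1, for the neural cell adhesion molecule, fell from 34.6 ± 8.55 to 11.4 ± 3.22 TPM (-1.53 ± 0.23, adjusted p = 0.00104) while L1cam rose, and it was at 8.34 ± 0.75 TPM in RE (-1.90 ± 0.23 against CON, adjusted p = 0.000253). Ezr, for the membrane linker ezrin, went from 137 ± 50.4 TPM to 52.1 ± 7.53 TPM in KD (-1.28 ± 0.31, adjusted p = 0.0208) and 42.6 ± 12.7 TPM in RE (-1.60 ± 0.31, adjusted p = 0.00857). The KD call of Ezr was lost when KD 2, KD 4 or any of CON 1 to CON 3 was left out (largest adjusted p 0.0699). Chl1, Nrcam and Nfasc, the close relatives of L1cam, were at or below 0.365 TPM in every library. Without CON 4, RE 1 and RE 3, 0 of the 11 rose and 7 fell in KD (14.2% and 25.1% of all tested genes). In RE against KD 0 of the 46 tested genes of these 5 lists passed the limma test, and 17 had an unadjusted p below 0.05, as had 28.0% of all tested genes. Without CON 4, 0 of the 46 rose and 15 fell, where 3.85% of all tested genes rose and 19.9% fell, and without RE 2 3 fell (3.44% of all tested genes).

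**Figure D4:**
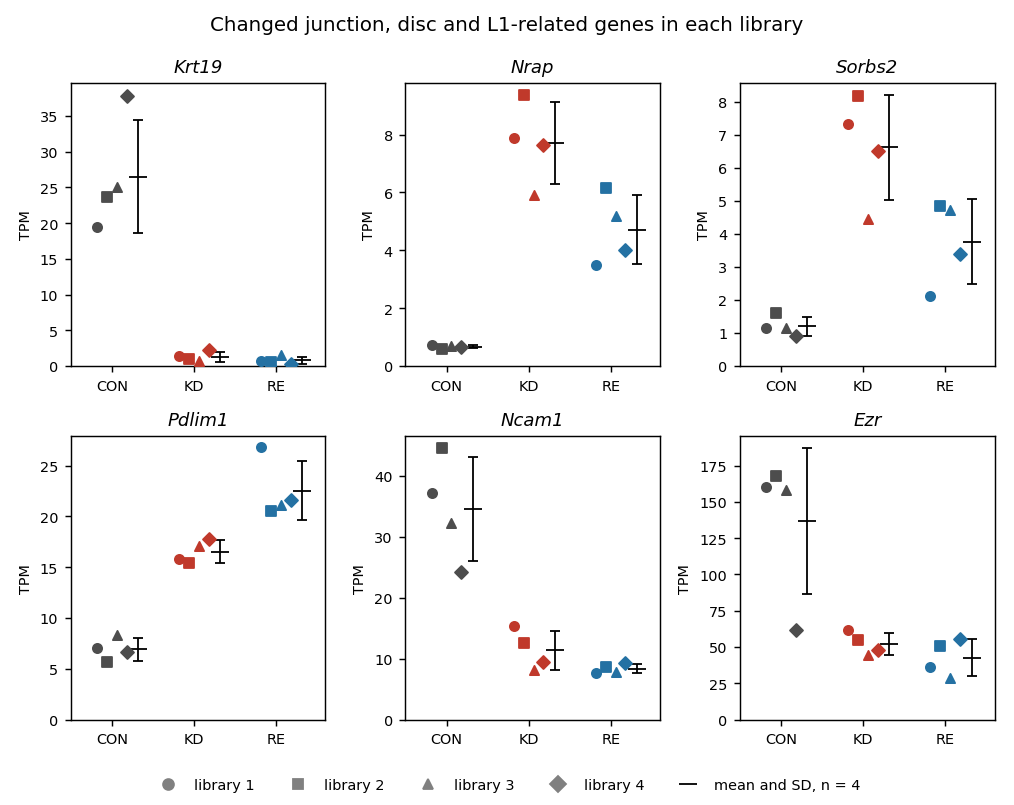
TPM (linear axis from 0) of 6 changed genes from the junction, disc and L1 lists in each library, with the mean and SD of 4 libraries. Krt19 lies at 19.5 to 37.8 TPM in CON and at or below 2.17 TPM elsewhere, Nrap at 0.596 to 0.724 TPM in CON and 3.50 to 9.36 TPM elsewhere, and Ezr in CON 4 at 61.4 TPM, apart from the other CON libraries.

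The genes whose pattern over the 12 libraries was most like that of Pkp1 and of L1cam were ranked by the root mean square difference of gene-centred log2(TPM + 1) values, among 9630 genes for Pkp1 and 9629 for L1cam. Among the closest to Pkp1 were Ncam1 (difference 0.27) and Msln for mesothelin, a cell surface protein (0.29). Msln was at 110 ± 9.26 TPM in CON, 28.1 ± 3.24 TPM in KD and 25.7 ± 0.75 TPM in RE. The closest to L1cam were Slc6a17 for a transporter of neutral amino acids (0.26), Slfn4 of the Schlafen family (0.26) and Slc7a2 for a transporter of cationic amino acids (0.29). Slc6a17 was at 4.19 ± 0.58 TPM in CON, 37.9 ± 10.8 TPM in KD and 15.6 ± 4.03 TPM in RE. The likeness is a description over libraries that share their groups and their length bias.

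**Figure D5:**
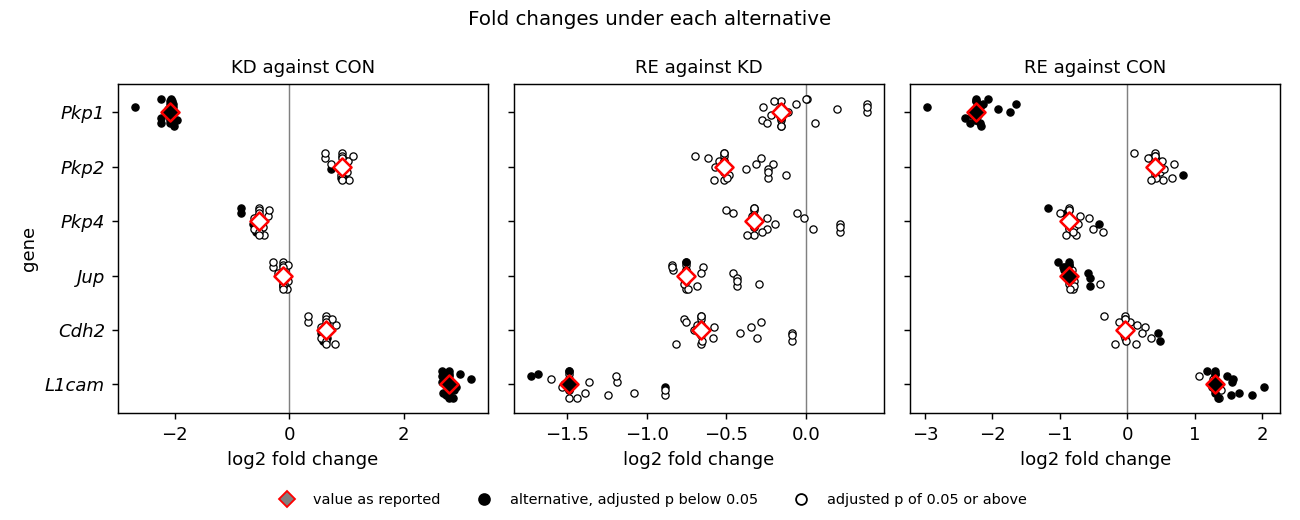
Log2 fold changes of the 6 tested adhesion genes in the 3 comparisons under each alternative way of processing; diamonds are the values as reported, circles the alternatives, and filled symbols have an adjusted p below 0.05. In KD against CON all points of Pkp1 and L1cam are filled, and in RE against KD the L1cam points run from -1.73 to -0.88 with 4 of 24 alternatives filled.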

How the data were processed

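The authors deposited 1 table of TPM values, 23184 gene symbols by 12 libraries, with every column summing to 1000000. Trim Galore 0.6.6, TopHat2 2.1.1, Cufflinks 2.2.1 and the mm10 build are named in the submitters' processing notes. The TPM step and the use of strand are not given in the sources used here. The 4 columns named WT were taken as CON, since the labels give that genotype to CON alone; their numbers are only names. The number at the end of the treatment label counts up with the library number in KD and RE, and groups were taken from the titles.

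Values were analysed as log2(TPM + 1) for 11774 genes with a mean of at least 1 TPM, in 1 limma 3.58.1 model (R 4.3.3) with 3 group means and a mean-variance trend, two-sided, with Benjamini-Hochberg adjustment over all tested genes. The fit was tested on simulated data. Adhesion genes and lists were chosen with earlier results of these data known. Of each related list, up to 3 changed genes per comparison are named, chosen by largest fold change. Transcript lengths come from GENCODE M21 (GRCm38) and matched 96.2% of tested genes. Alternatives were a pseudocount of 0.1, no filter, a 5 TPM minimum, quantile normalization, median-of-ratios scaling, robust moderation, the compared groups alone, a loess length correction (span 0.5), a replicate block, and left-out libraries. Leaving out CON 4 with the length correction was added after the data were seen. Of the genes ranked by likeness, 1 is not reported here.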

Additional observations from a re-analysis of the deposited data

Results flagged for a closer look

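Among groups of 4 libraries, a library was picked out where its gap to the nearest other library exceeded 0.829 of the group's range (Dixon's 95% value), which chance alone gives in about 1 of 20 groups; 5 of 50 groups examined met it. Pkp2 in CON 4 was 4.59 TPM, against 11.4 to 12.7 TPM in the other CON libraries. Pkp3 in KD 4 was 0.385 TPM, against 0.230 to 0.240 TPM. Dsc2 in RE 2 was 0.0269 TPM, against 0 in the other RE libraries. Where 3 of 4 values are 0, any other value meets the rule, so the rate of 1 in 20 does not hold for Dsc2. Pdlim1 in RE 1 was 26.8 TPM, against 20.6 to 21.6 TPM. Ezr in CON 4 was 61.4 TPM, against 158 to 167 TPM.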

How the results depend on the processing

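The KD rise of L1cam and the KD and RE differences of Pkp1 from CON passed under every alternative in which these genes were tested, and so did Wdr62 in KD against CON (-2.25 to -1.56). In KD against CON the number of adhesion genes that changed was 2 as reported, 1 with a filter of 5 TPM, under which Pkp1 was not tested, and 5 with quantile normalization, the length correction or the length correction without CON 4 (16.2%, 22.8% and 34.6% of all tested genes); leaving out 1 library gave 2 to 3 (3 without CON 4, 20.5% of all genes). In RE against KD it was 1 as reported, and 0 with a pseudocount of 0.1, no filter, a filter of 5 TPM, either scaling, the compared groups alone, robust moderation, the length correction, or without CON 4, RE 1 and RE 3; leaving out 1 library gave 0 to 2 (2 without CON 4, 23.7% of all genes). In RE against CON it was 3 as reported, 1 with the compared groups alone and 6 with the length correction without CON 4 (3.47% and 39.2% of all tested genes); leaving out 1 library gave 1 to 4 (4 without CON 4, 52.8% of all genes). The cause of these moves was not tested, except for the 5 TPM filter. The replicate block gave 0 changed genes among the 6 adhesion genes in RE against KD, with and without the length correction (0.283% and 0.127% of all tested genes). L1cam was at -0.88 and -1.49 in these fits (adjusted p = 0.130 and 0.102). The deviations of same-numbered KD and RE libraries correlated at -0.55, 0.65, 0.24 and -0.25, and not every library correlated best with its own number. These correlations cannot decide whether the numbers pair the libraries, since the length bias is part of each deviation. The CON columns carry no number to pair by. Signs turned in differences that had not passed as reported. Pkp1 in RE against KD was 0.010 with median-of-ratios scaling, 0.20 with quantile normalization, 0.059 without CON 4, RE 1 and RE 3, 0.39 with the length correction in all 3 fits that used it, and -0.27 to 0.0044 when 1 library was left out. Pkp4 in RE against KD was 0.044 with quantile normalization and 0.21 with the length correction in all 3 fits. Cdh2 in RE against CON was 0.27 and 0.35 with the scalings, 0.49 with the length correction (adjusted p = 0.0268), 0.46 without CON 4 as well (adjusted p = 0.0232), 0.042 without CON 4, RE 1 and RE 3, and -0.34 to 0.22 when 1 library was left out. Depth is unknown, so no limit of detection can be set for genes listed at 0.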

Other observations

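Several cadherin and contactin genes with a mean under 1 TPM were seen in 1 group more than in the others; they were picked after their values were seen and were not tested. Cdh15, for the M-cadherin of skeletal muscle, was at 0.365 to 4.57 TPM in CON, 0 to 0.0768 TPM in KD and 0 to 0.166 TPM in RE. Cdh18 was at 0.608 to 1.44 TPM in CON, 0 to 0.0479 TPM in KD and 0 to 0.0427 TPM in RE. Cdh22 stood at 0 in every KD and RE library, and between 0.124 and 0.414 TPM in CON. Cntn1, for contactin 1, a binding partner of L1-family proteins, lay on the other side, at 0.126 to 0.169 TPM in CON, 0.940 to 1.30 TPM in KD and 0.293 to 0.986 TPM in RE.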
